A study of Mus musculus with 2 samples.

Results

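Cycling melanoma cells are described here in viable CD45+ cells sorted from B16F10 tumours, a transplantable line of mouse melanoma. They were chosen from measured values: a cell barcode of the deposited filtered matrix counted as melanoma with at least 5000 unique molecular identifiers (UMIs, counts of captured RNA molecules), at most 10% of them from mitochondrial (mt-) genes, no UMI of Ptprc, the gene of CD45 itself, and at least 0.5% of UMIs in Pmel, Mlana, Dct and Tyrp1. Of these, a barcode counted as cycling when Top2a, Mki67, Cdk1, Prc1, Cenpf and Aurkb together made up at least 0.05% of its UMIs. The rule found 2532 cycling barcodes among 6133 melanoma barcodes and 18252 barcodes in all. The other 3601 melanoma barcodes, those under 0.05%, are the comparison throughout.

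The hosts were mice with a myeloid specific c-Rel KO, of genotype LysM-cre x RelloxP/loxP, and WT mice, of genotype LysM-cre x Rel+/+, so that every host carried LysM-cre. Rel encodes c-Rel, a subunit of NF-kB, and LysM-cre, expressed from the lysozyme promoter of myeloid cells, deletes the floxed gene in those cells. These are alleles of the hosts, while the melanoma cells are of the injected line. Tumours were taken 2 weeks after injection, and 5 were pooled for each genotype and profiled by 10x Genomics droplet 3′ single-cell RNA sequencing. The 2 libraries lie in 1 matrix and are told apart by the number, 1 or 2, that ends each barcode. Nothing in the sources used here ties that number to a genotype, so no genotype is compared and each library is given under its number.

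A dividing cell copies its DNA in S phase and parts the copies in mitosis, and many genes of each step are transcribed only as the step nears. E2F factors, held back in resting cells by pocket proteins such as Rb1, drive genes of replication. B-Myb (Mybl2), the MuvB proteins (Lin9, Lin37, Lin52, Lin54) and FoxM1 drive genes of mitosis, which often carry the promoter element called CHR. Cyclin-dependent kinases time the steps, and the anaphase-promoting complex ends mitosis by marking cyclin B and securin for destruction. Melanocytes make pigment from tyrosine under the factors Mitf and Sox10, and B16F10 keeps both.

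Library 1 held 778 cycling and 1027 other melanoma barcodes among 7688 barcodes with 49129318 UMIs. Library 2 held 1754 cycling and 2574 other melanoma barcodes among 10564 barcodes with 73507228 UMIs. Cycling barcodes were thus 43.1% (95% Clopper-Pearson interval 40.8 to 45.4) of melanoma barcodes in library 1 and 40.5% (39.1 to 42.0) in library 2. All intervals cover counting error only. No test between the classes is given, since barcodes are not replicates, the rule was read from the same cells, and only 2 libraries hold both classes.

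Cell barcode sequences found in both libraries numbered 3609. They included 669 of the cycling barcodes of library 1 (86.0%), against 679 of its other melanoma barcodes (66.1%), and 957 of the cycling barcodes of library 2 (54.6%), against 813 of its other melanoma barcodes (31.6%). The barcode of the same sequence in the other library held a median of 4.73% (library 1) and 3.96% (library 2) of the cycling barcode's UMIs, so the cycling barcodes were the larger of such pairs as a rule. No cycling barcode had a counterpart with over 10 times its own UMIs, and no pair of cycling barcodes shared a sequence. Without all shared sequences, cycling barcodes were 23.9% of melanoma barcodes in library 1 and 31.2% in library 2, so that the share in library 1 moved by more than 1.5 times. What shared sequences contribute to the share was not tested beyond this.

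The rule sets a threshold on a continuous share. In cycling barcodes the 6 genes made up a median of 0.145% of UMIs in library 1 and 0.139% in library 2, with a highest value of 0.659% and 1.17%. In other melanoma barcodes the medians were 0.0123% and 0.0125%. Just inside the threshold, at 0.05% to under 0.06%, lay 83 barcodes of library 1 and 169 of library 2. Just outside it, at 0.04% to under 0.05%, lay 90 and 221. By the rule, cycling and other barcodes are ranges of a score, and whether they are also separate types was not tested. The missing gap cannot tell, since the counts are small. The 6 genes gave a median of 31 and 19 UMIs in cycling barcodes of libraries 1 and 2, against 2 and 1 in other melanoma barcodes. A cycling barcode could rest on as few as 3 UMIs of the 6 genes. After each barcode was thinned to 5000 UMIs, the rule gave 735 cycling barcodes in library 1 and 1734 in library 2, of which 675 and 1566 were cycling in the full counts too.

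**Figure D1:**
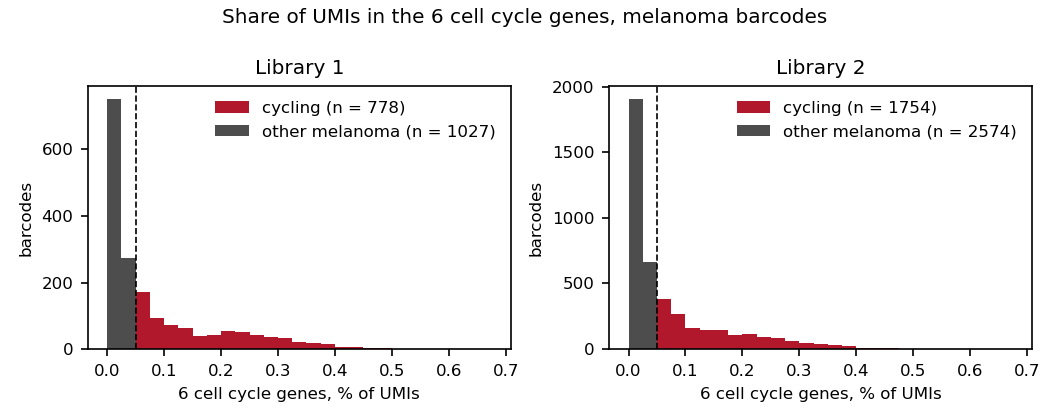
Histogram of melanoma barcodes by the share of UMIs in the 6 cell cycle genes (x axis, percent; y axis, barcodes), cycling in red and other melanoma barcodes in grey, with the 0.05% threshold dashed. The 2 barcodes of library 2 above 0.67% are drawn in the last bin, and the counts fall off without a gap at the threshold.

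Cycling barcodes held more RNA. Their median was 22358 and 14018 UMIs in libraries 1 and 2, against 16556 and 11531 in other melanoma barcodes, with middle ranges (25th to 75th percentile) in library 1 of 17016 to 27812 UMIs, against 13289 to 20422. They had a median of 4643 and 3644 genes detected, against 3913 and 3186 in other melanoma barcodes. At 5000 UMIs each the medians were 2022 and 1983 genes, against 1964 and 1929. The ranges of UMIs overlapped, and most of the difference in genes detected was gone at equal depth. Mitochondrial genes took a median of 3.62 and 3.91% of UMIs in cycling barcodes, against 3.94 and 4.01% in other melanoma barcodes.

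The genes that chose the members are given here as a description. In counts per 1000000 UMIs of a class (CPM), Top2a, the topoisomerase that untangles chromosomes, stood at 705 and 576 CPM in cycling barcodes of libraries 1 and 2, against 51.6 and 52.9 CPM in other melanoma barcodes. Mki67, which coats mitotic chromosomes and encodes the Ki-67 antigen, stood at 336 and 268 CPM, against 47.9 and 37.2. Prc1, which bundles microtubules of the central spindle, stood at 268 and 259 CPM, against 10.4 and 14.5. Of the 6, Prc1 differed most between the classes and Mki67 and Cdk1 least. Cenpf, a kinetochore protein, stood at 323 and 332 CPM, against 30.03 and 30.8. Cdk1, the mitotic kinase, stood at 152 and 155 CPM, against 20.99 and 24.5. Aurkb, the kinase of the chromosomal passenger complex, was the scarcest at 55.3 and 60.98 CPM, against 4.35 and 5.17. Top2a alone supplied 38.4% and 34.9% of the 6-gene UMIs of cycling barcodes, and Aurkb 3.005% and 3.69%.

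The label melanoma was checked on genes outside the rule. Sox10 stood at 140.3 and 167 CPM in cycling barcodes, against 134 and 160.3 CPM in other melanoma barcodes. Mitf stood at 397 and 266 CPM, against 384 and 246. Tyr, the tyrosinase that starts pigment synthesis, stood at 102 and 123 CPM, against 134 and 141. All 3 were present in both classes and none passed the 1.5-fold rule given below. The 4 pigment genes of the rule made up a median of 1.03 and 1.02% of UMIs in cycling barcodes, against 1.07 and 0.988%. Leukocyte markers were not at zero despite the lack of Ptprc: the 24 markers summed to 160 CPM in cycling barcodes of library 1, against 224 CPM in other melanoma barcodes, and to 218 CPM in library 2, against 247 CPM. Per barcode, the medians were 107 CPM in cycling barcodes of library 1, against 110 CPM, and 152 CPM in both classes of library 2. Of the leukocyte markers, Fcer1g, an Fc receptor chain of myeloid cells, was highest in cycling barcodes, at 26.3 and 34.1 CPM, against 28.3 and 35.8, while the T cell gene Cd3e stood at 0.799 and 0.887 CPM, against 0.686 and 0.780. The 10 stromal and red cell markers summed to 48.8 and 38.0 CPM in cycling barcodes, against 53.8 and 90.3 CPM in other melanoma barcodes, and the haemoglobin gene Hbb-bs made up most of it. None of these markers lacked UMIs in melanoma barcodes altogether, and of the 18 leukocyte and 5 stromal and red cell markers measured none was called higher or lower. The median log2 ratio of the leukocyte list was -0.32, but 0.10 without shared barcode sequences and 0.12 without barcodes above the median share of these markers. The part of free RNA or of doublets in the results was not tested.

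Among the barcodes of at least 5000 UMIs with at least 1 UMI of Ptprc and under 0.5% in the pigment genes, 107 of 204 (52.5%, 45.4 to 59.5) in library 1 and 39 of 66 (59.1%, 46.3 to 71.0) in library 2 passed the same 6-gene threshold. Leukocyte barcodes of this depth thus passed it too, and at no lower a share.

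To describe what else set cycling barcodes apart, UMIs were summed over each class and library. A gene counted as higher or lower when its CPM ratio, cycling over other melanoma barcodes, was at least 1.5 in that direction in both libraries, and a gene was compared only where each library gave it 50 UMIs or more in cycling and other barcodes together. Of 10727 such genes, 490 were higher (4.57% of genes tested) and 214 were lower (1.99%) in cycling barcodes. Since the 6 genes that chose the barcodes were read from the same cells, these counts describe the classes and test nothing. After thinning to 5000 UMIs, 374 genes were higher and 116 lower of 8755 tested, and without shared barcode sequences 339 were higher and 86 lower of 7664 tested, so that the genes tested changed with the barcodes. The 25 gene lists held 476 of the genes tested, with 212 of the 490 higher and 21 of the 214 lower genes. The median log2 ratio over all genes tested, taken as the mean of both libraries, was 0.00.

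**Figure D2:**
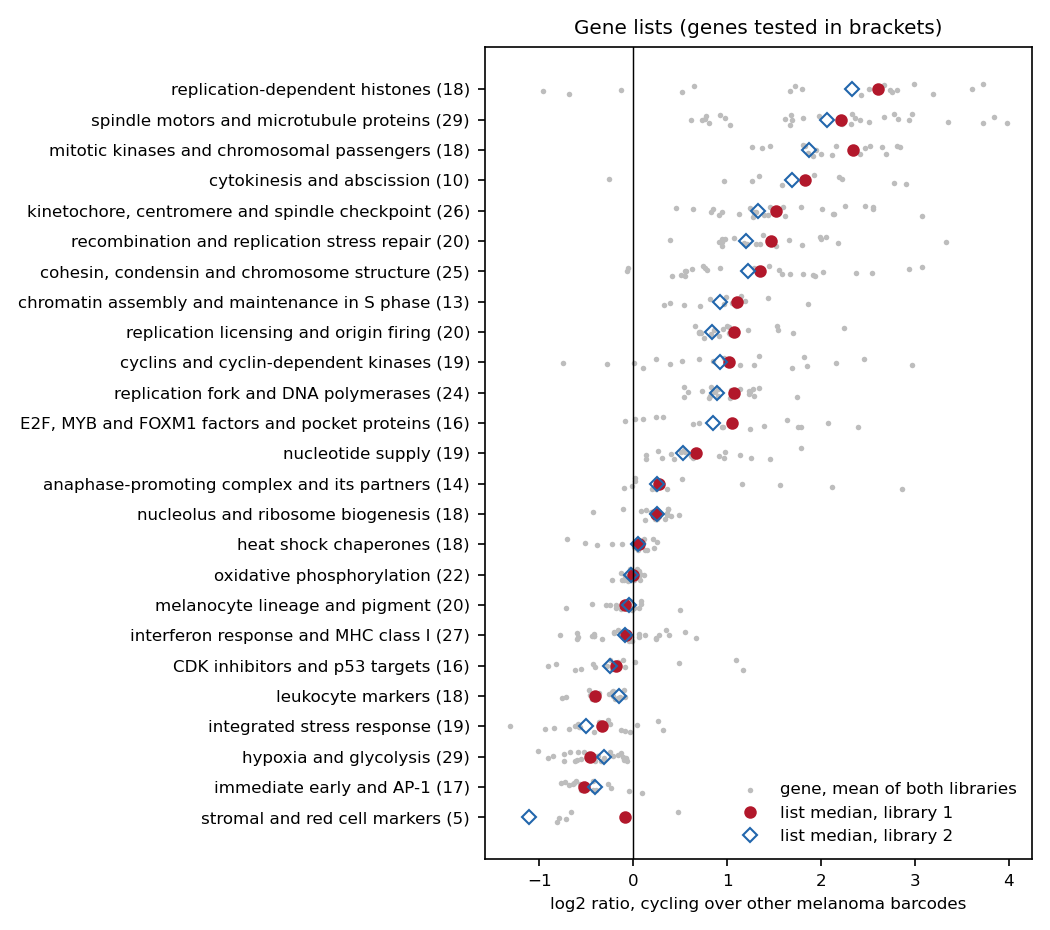
The log2 ratio of CPM, cycling over other melanoma barcodes (x axis), for the genes of 25 lists (y axis, with the number of genes tested). Grey points are genes (mean of both libraries), filled circles are list medians in library 1 and open diamonds those in library 2; the lists of division lie right of 0, and the hypoxia, integrated stress and immediate early lists left of it.

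Genes of the mitotic spindle were higher almost throughout their list. Of 29 genes of spindle motors and microtubule proteins, 28 were higher and none lower in cycling barcodes, with a median log2 ratio of 2.23. Nusap1, a microtubule-binding protein of the spindle (ENSMUSG00000027306, GRCm38 chr2:119618298-119651244, plus strand), stood at 86.5 and 104 CPM in cycling barcodes of libraries 1 and 2, against 5.61 and 9.001 CPM in other melanoma barcodes, ratios of 15.4 (12.6 to 19.1) and 11.5 (10.2 to 13.1). Kif11, the motor that pushes spindle poles apart (ENSMUSG00000012443, GRCm38 chr19:37376403-37421859, plus strand), stood at 73.1 and 46.6 CPM, against 6.01 and 5.39, ratios of 12.2 (9.97 to 15.001) and 8.64 (7.34 to 10.2). Both were scarce in other melanoma barcodes and differed by more than counting error. Fam83d, a spindle protein, had the highest ratio of the list in library 2, 11.7 and 11.9 CPM against 0.572 and 0.910. Kif18b, a motor that shortens microtubules, had the highest in library 1, at 7.53 and 6.83 CPM against 0.286 and 0.780. Aspm, of the spindle poles, and Kif23, of the cleavage furrow, had ratios of 8.57 and 6.91 and of 7.26 and 6.53. Tubb5, a tubulin whose reads could be split with its near-identical family members, was abundant in both classes, at 1806 and 1615 CPM against 1065 and 998. The gene of the list that was not called was Numa1, with ratios of 1.45 and 1.61.

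All 18 measured mitotic kinases and chromosomal passengers were higher, with a median log2 ratio of 2.06. Plk1, the kinase that runs much of mitosis, stood at 70.4 and 55.5 CPM in cycling barcodes, against 13.1 and 9.75 CPM in other melanoma barcodes. Incenp, the scaffold of the passenger complex, stood at 91.8 and 75.9 CPM, against 11.2 and 12.1. Sgo2a and Sgo1, which guard cohesin at centromeres, had ratios of 8.59 and 5.77 and of 7.21 and 5.85. The smallest ratio of the list in library 1 was that of Birc5, the passenger protein survivin, at 389 and 369 CPM against 156 and 159, ratios of 2.49 and 2.33. It was also among the most abundant of the list in both classes.

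Of 26 genes of kinetochore, centromere and spindle checkpoint, 24 were higher, with a median log2 ratio of 1.42. Cenpe, a kinetochore motor, stood at 135 and 116 CPM in cycling barcodes, against 21.8 and 20.8 CPM in other melanoma barcodes, and Knl1 and Spc25, of the microtubule-binding outer kinetochore, had ratios of 6.78 and 5.10 and of 5.74 and 5.37. Zwint and Cenpw were not called: Zwint had ratios of 1.78 and 1.35 and Cenpw of 1.37 and 1.38. Of 10 measured genes of cytokinesis, the final cut between daughter cells, 9 were higher, led by Cep55 at 23.2 and 21.3 CPM against 2.23 and 3.90. The exception was Chmp4b, part of the general membrane-cutting machinery, with ratios of 0.854 and 0.818.

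Chromosome structure was split. Of 25 genes of the cohesin, condensin and chromosome structure list, 18 were higher and none lower, with a median log2 ratio of 1.29. Esco2, which locks cohesin in S phase, stood at 37.5 and 29.4 CPM in cycling barcodes, against 3.43 and 4.45 CPM, and Espl1, the separase that cuts cohesin, at 30.4 and 26.3 CPM, against 3.20 and 4.19. The condensin genes Ncaph and Ncapg had ratios of 6.53 and 5.28 and of 4.09 and 4.07. Pttg1, the securin that holds separase back, was level: 55.8 and 59.6 CPM in cycling barcodes, against 57.5 and 63.3 CPM in other melanoma barcodes, ratios of 0.969 (0.887 to 1.06) and 0.941 (0.880 to 1.01). Top2b, the topoisomerase also made by non-dividing cells, had ratios of 1.01 and 0.912, in contrast to Top2a of the rule.

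Genes of DNA replication were higher by smaller ratios. Of 20 genes of licensing and origin firing, 18 were higher and none lower, with a median log2 ratio of 0.97. Mcm5, of the replicative helicase (ENSMUSG00000005410, GRCm38 chr8:75109569-75128439, plus strand), stood at 132 and 111 CPM in cycling barcodes, against 60.01 and 55.1 CPM in other melanoma barcodes, ratios of 2.21 (2.05 to 2.38) and 2.02 (1.90 to 2.15). Cdc45, which joins that helicase when origins fire, stood at 32.5 and 24.5 CPM, against 9.44 and 7.93, and Ticrr, which helps load it, at 16.5 and 11.4 CPM, against 2.97 and 2.76. The firing factors Ticrr and Cdc45 thus had higher ratios than Mcm5 in both libraries. Of 24 fork and DNA polymerase genes, 21 were higher, with a median log2 ratio of 0.96. Pcna, the sliding clamp, stood at 88.9 and 70.5 CPM, against 44.4 and 40.4, and Clspn, of the fork checkpoint, at 60.6 and 52.7 CPM, against 16.6 and 16.99. Rfc1, the clamp loader, and Rpa1, which coats single-stranded DNA, fell just short of 1.5, with ratios of 1.47 and 1.43 and of 1.46 and 1.45.

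Of 19 nucleotide supply genes 8 were higher, with a median log2 ratio of 0.61. Among those called, Tk1, thymidine kinase, stood at 92.1 and 83.5 CPM in cycling barcodes, against 24.8 and 25.9 CPM, and Rrm2, the regulated subunit of ribonucleotide reductase, at 205 and 197 CPM, against 70.4 and 76.2. Mthfd2 and Nme1, at the other end of the list, had ratios of 1.13 and 1.07 and of 1.11 and 1.08. Of 20 genes of recombination and replication stress repair, 19 were higher, with a median log2 ratio of 1.33, led by the helicase Pif1 at 11.3 and 11.6 CPM, against 1.09 and 1.14. The exception was Brca1, with 57.8 and 38.8 CPM against 51.9 and 25.1, ratios of 1.11 (1.02 to 1.22) and 1.54 (1.40 to 1.70), while its partner Bard1 had ratios of 4.77 and 3.35. Of 13 chromatin assembly genes 10 were higher, among them Asf1b, a histone chaperone, with ratios of 3.94 and 3.38, and Dnmt1, which copies DNA methylation, with 2.15 and 2.13.

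Histone genes of the replication-dependent clusters had the highest list median, a log2 ratio of 2.47 over the 18 of 25 genes measured, with 13 higher and 2 lower. That rank depended on the settings: with at least 10 UMIs per gene the histone median was 1.76, under the 2.23 of the spindle list, and the list was also not the highest at 0.03% of UMIs in the rule genes or without shared barcode sequences. Most of their mRNA lacks a poly(A) tail, so that poly(A)-primed 3′ libraries see only a part of it, and near-identical copies can share reads, so single copies are uncertain. The summed level of the list was 829 CPM (816 to 843) in cycling barcodes of library 1, against 223 CPM (216 to 230), and 1014 CPM (1002 to 1026) in library 2, against 285 CPM (279 to 291). Hist1h3c stood at 41.98 and 53.4 CPM, against 2.52 and 5.004, and Hist1h2ae at 136 and 183 CPM, against 12.98 and 22.8. A pair of copies went the other way. Hist1h2bc stood at 33.03 and 43.5 CPM in cycling barcodes, against 56.5 and 66.1 CPM in other melanoma barcodes. Hist1h3d, scarce in both classes and so less certain, stood at 1.03 and 0.656 CPM, against 1.83 and 1.43.

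Cyclins did not move as a block. Of 19 genes of the cyclin and cyclin-dependent kinase list, 11 were higher and 1 lower, with a median log2 ratio of 0.97. Ccnb1, cyclin B1 of mitosis (ENSMUSG00000041431, GRCm38 chr13:100778650-100786570, minus strand), stood at 196 and 179.6 CPM in cycling barcodes, against 52.2 and 51.7 CPM in other melanoma barcodes, ratios of 3.75 (3.49 to 4.04) and 3.48 (3.28 to 3.68). Ccna2, cyclin A2 of S phase and G2, stood at 104 and 86.5 CPM, against 19.8 and 22.6, ratios of 5.25 (4.68 to 5.91) and 3.82 (3.51 to 4.17). Ccnb2, cyclin B2, was less unequal than Ccnb1, at 95.1 and 95.3 CPM, against 70.7 and 62.5, ratios of 1.35 (1.25 to 1.45) and 1.52 (1.44 to 1.62), and so missed the call in library 1. Ccnd2, cyclin D2, was the lower one, at 257 and 354 CPM in cycling barcodes, against 436 and 590.1 CPM, and Ccnd1, cyclin D1 of G1, stood at 97.8 and 128 CPM, against 112 and 164. Ccnf, cyclin F, and Cdc25b, the phosphatase that activates Cdk1, had the highest ratios of the list, 10.8 and 5.78 and 5.54 and 5.47.

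Of 14 genes of the anaphase-promoting complex and its partners, 4 were higher, with a median log2 ratio of 0.25. These were the partners: the activators Cdc20, at 95.3 and 77.5 CPM against 30.3 and 27.9, and Fzr1, at 59.5 and 61.8 CPM against 26.2 and 28.2, the enzyme Ube2c, at 288 and 239 CPM against 68.5 and 53.03, and the inhibitor Fbxo5, at 42.04 and 38.9 CPM against 4.06 and 7.47. Core subunits such as Anapc4 and Anapc13 had ratios of 1.004 and 1.02 and of 0.922 and 0.944. Of 16 genes of E2F, MYB, FOXM1 and pocket proteins, 10 were higher, with a median log2 ratio of 0.95. E2f8, which shuts E2F genes off late in S phase, stood at 11.2 and 11.6 CPM, against 1.89 and 2.44, Mybl2 at 33.5 and 26.5 CPM, against 6.24 and 7.99, and Foxm1 at 51.2 and 42.3 CPM, against 13.4 and 13.5. Rb1, at 8.84 and 9.30 CPM against 9.32 and 10.01, and Lin37, at 20.4 and 18.7 CPM against 18.5 and 20.2, lay near 1 in ratio.

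Inhibitors of the cell cycle differed among themselves. Of 16 measured genes of the inhibitor and p53 target list, 2 were higher and 1 lower, with a median log2 ratio of -0.24. The higher ones were Cdkn2d, at 54.4 and 54.8 CPM in cycling barcodes against 22.8 and 25.9 CPM, and Cdkn2c, at 35.4 and 21.02 CPM against 17.3 and 9.39, both inhibitors of Cdk4 and Cdk6. Cdkn1a, the p53 target p21, stood at 139.7 and 268 CPM, against 155 and 332, and Cdkn1b, p27, at 112 and 84.05 CPM, against 123 and 86.5, so both were present in cycling barcodes at levels close to those of the other class. Gadd45a, another p53 target, was the lower one, at 5.59 and 5.21 CPM, against 9.32 and 10.98.

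The promoters of these genes were read for 3 short motifs, since the lists of replication and of mitosis stood apart in ratio. Windows run from 250 bases before to 50 after each start, from RefSeq on GRCm38.p6, 32851 in all, and the motifs were chosen after the ratios were seen. Both strands were searched for the CHR letters TTTGAA, for CCAAT, and for E2F-type letters in 4 spellings. The first of these was TTCCCGC and the second TTCGCGC. The third was TTGCCGC and the fourth TTGGCGC. Matches of CHR and E2F-type letters overlapped in 0 windows, of CHR and CCAAT in 47, and of CCAAT and E2F-type in 148. The windows printed are those of Top2a and Cdk1, which chose the cells, Plk1 of the mitosis lists, and Mcm5 and Mcm3 of the licensing list. The windows lie at chr11:99024140-99024439 (minus strand), chr10:69352863-69353162 (minus), chr7:122159185-122159484 (plus), chr8:75109259-75109558 (plus) and chr1:20820263-20820562 (minus), and are written 5′ to 3′ on the gene's strand with CHR and E2F-type letters in capitals.
Top2a: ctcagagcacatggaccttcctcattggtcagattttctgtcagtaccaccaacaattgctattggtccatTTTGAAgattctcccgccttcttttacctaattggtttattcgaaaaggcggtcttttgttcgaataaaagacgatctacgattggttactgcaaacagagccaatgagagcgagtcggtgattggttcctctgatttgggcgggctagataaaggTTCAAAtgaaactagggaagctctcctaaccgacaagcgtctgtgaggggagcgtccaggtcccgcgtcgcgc
Cdk1: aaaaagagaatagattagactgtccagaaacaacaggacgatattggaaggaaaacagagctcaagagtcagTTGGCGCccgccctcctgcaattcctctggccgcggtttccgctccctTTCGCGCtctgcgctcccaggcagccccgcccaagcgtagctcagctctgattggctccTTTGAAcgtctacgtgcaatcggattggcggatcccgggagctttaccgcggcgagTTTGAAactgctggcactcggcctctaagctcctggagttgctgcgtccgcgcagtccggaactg
Plk1: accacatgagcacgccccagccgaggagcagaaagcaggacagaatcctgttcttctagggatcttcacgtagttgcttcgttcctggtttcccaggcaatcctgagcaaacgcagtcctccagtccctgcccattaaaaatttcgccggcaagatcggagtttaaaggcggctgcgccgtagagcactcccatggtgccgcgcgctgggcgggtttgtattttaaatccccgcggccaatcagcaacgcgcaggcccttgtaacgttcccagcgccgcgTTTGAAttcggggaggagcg
Mcm5: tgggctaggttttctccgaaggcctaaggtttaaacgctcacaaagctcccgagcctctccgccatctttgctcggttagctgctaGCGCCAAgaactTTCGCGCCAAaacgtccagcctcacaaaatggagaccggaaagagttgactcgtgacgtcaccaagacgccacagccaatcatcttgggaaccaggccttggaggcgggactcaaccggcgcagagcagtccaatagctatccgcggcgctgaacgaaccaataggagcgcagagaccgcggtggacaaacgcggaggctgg
Mcm3: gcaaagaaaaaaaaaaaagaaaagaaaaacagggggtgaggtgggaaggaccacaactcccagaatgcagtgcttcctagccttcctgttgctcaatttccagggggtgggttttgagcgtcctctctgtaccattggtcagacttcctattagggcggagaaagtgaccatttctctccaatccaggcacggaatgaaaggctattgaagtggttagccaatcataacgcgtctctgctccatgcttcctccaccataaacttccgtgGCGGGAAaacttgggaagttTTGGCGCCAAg
In capitals, Top2a held 2 CHR and 0 E2F-type matches, Cdk1 held 2 of each, Plk1 held 1 CHR and 0 E2F-type matches, and Mcm5 and Mcm3 held 0 CHR and 3 E2F-type matches each, some of which overlap one another. Other genes named above differed. Nusap1 of the spindle and Pcna of the fork held 0 CHR and 0 E2F-type matches, and Ccnb1 held 0 CHR and 1 E2F-type match. Kif11 and Cdc20 held 1 CHR and 0 E2F-type matches each, and Rrm2 and Clspn 0 CHR and 1 E2F-type match each.

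Lists were pooled after the ratios were seen, in the same groups as for the UMIs of S phase and mitosis genes below. Those UMIs leave out some genes of the mitosis lists, which are named there. Over the 5 mitosis lists (kinases and passengers, kinetochore, spindle, cytokinesis, anaphase-promoting complex), 84 of 98 genes matched 94 windows, of which 47 held the CHR letters and 16 E2F-type letters. Over the 4 S phase lists (licensing, fork, nucleotide supply, chromatin assembly), 65 of 77 genes matched 76 windows, of which 13 (17.1%) held the CHR letters and 42 (55.3%) E2F-type letters. The lists within a pool differed: the CHR letters were in 21.4% of 14 windows of the anaphase-promoting complex list, and E2F-type letters in 36.8% of 19 windows of nucleotide supply. Repair, in neither pool, had E2F-type letters in 60.0% of 15 windows. Of all windows 17.9% held the CHR letters and 9.57% E2F-type letters, and of the windows of genes tested 11.8% and 17.3%. CCAAT was held by 68.1% of windows of the mitosis lists, 57.9% of those of the S phase lists and 37.4% of all windows. The cytokinesis list had the highest share with CHR letters of any list, 76.9% of 13 windows, and the licensing list the highest with E2F-type letters, 64.7% of 17. Over the genes higher in cycling barcodes, 31.7% of 457 windows held CHR and 37.0% E2F-type letters, and over the genes lower, 8.14% and 8.60% of 221. A match is a description of letters and shows no binding.

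The genes with the highest ratios outside the lists were also rare in other melanoma barcodes. Hist1h2af, a histone copy and so uncertain, had 65 and 124 UMIs in cycling barcodes of libraries 1 and 2, against 2 and 10 UMIs in other melanoma barcodes. Its ratio of 32.4 in library 1 has a counting interval of 8.62 to 273. Neil3, a DNA glycosylase, stood at 16.8 and 15.4 CPM, against 1.43 and 2.05, and Cdca2, which steers a phosphatase to chromosomes at mitotic exit, at 29.2 and 20.02 CPM, against 2.52 and 2.44.

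At the other end, the lowest ratios were of genes of different kinds. Mxd4, a MAX partner that opposes MYC (ENSMUSG00000037235, GRCm38 chr5:34173883-34187720, minus strand), stood at 13.3 and 11.4 CPM in cycling barcodes, against 40.4 and 36.2 CPM in other melanoma barcodes, ratios of 0.329 (0.283 to 0.382) and 0.316 (0.277 to 0.359). Kdm5b, a histone H3 lysine demethylase (ENSMUSG00000042207, GRCm38 chr1:134560171-134635285, plus strand), stood at 45.6 and 34.6 CPM, against 113 and 79.4, ratios of 0.403 (0.371 to 0.438) and 0.435 (0.403 to 0.470). Kcnj13, a potassium channel, stood at 5.36 and 2.47 CPM, against 28.03 and 8.06, ratios of 0.191 (0.152 to 0.239) and 0.306 (0.229 to 0.405). The 3 genes were lower in cycling barcodes of both libraries by more than counting error. Cck, the cholecystokinin hormone gene, differed more between libraries than between classes, at 55.2 and 4.59 CPM in cycling barcodes, against 182 and 10.6 CPM. Trp53cor1, the p53-induced long non-coding RNA lincRNA-p21, stood at 4.34 and 3.36 CPM, against 11.1 and 10.04, and Pcsk1n, an inhibitor of a prohormone convertase, at 0.685 and 1.31 CPM, against 3.09 and 5.59.

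Stress lists lay below 0. Of 29 measured hypoxia and glycolysis genes, none was higher and 6 were lower, with a median log2 ratio of -0.41 and a range over the genes of -1.02 to -0.07. Pgf, placental growth factor, stood at 45.5 and 42.1 CPM in cycling barcodes, against 96.8 and 81.04 CPM in other melanoma barcodes, and Aldoc, an aldolase, at 58.01 and 50.1 CPM, against 111 and 92.6. The abundant glycolytic genes were less unequal: Ldha, lactate dehydrogenase, stood at 2381 and 2586 CPM, against 2535 and 2722, and Eno1 at 993 and 1334 CPM, against 1041 and 1404. Of 19 genes of the integrated stress response, 4 were lower, with a median log2 ratio of -0.36, led by Nupr1, a stress-induced chromatin protein, at 15.7 and 16.01 CPM, against 36.9 and 42.5. Phgdh and Psat1 of serine synthesis stood on the other side of 1 in that list, with ratios of 1.33 and 1.17 and of 1.18 and 1.23. Of 17 immediate early and AP-1 genes, 4 were lower, with a median log2 ratio of -0.52, among them Fosl2 at 30.1 and 17.9 CPM, against 51.5 and 30.3. Over these lists the leukocyte marker sums were lower in cycling barcodes as well, and their part was not tested.

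Other lists had medians close to level. Of 20 melanocyte genes 0 were higher and 1 lower, with a median log2 ratio of -0.04. The lower one was S100b, a calcium-binding protein of neural crest cells, at 150.4 and 192 CPM in cycling barcodes, against 249.6 and 315 CPM. Mc1r, the melanocortin receptor, had ratios of 0.725 and 0.744. Of 27 interferon and MHC class I genes 2 were lower, with a median log2 ratio of -0.10: H2-K1, an antigen-presenting class I chain, stood at 90.5 and 109 CPM, against 173 and 170.4, and Isg15, a ubiquitin-like protein, at 3.42 and 3.12 CPM, against 5.21 and 4.78. In the same list Igtp and Nlrc5 lay on the other side of 1, with ratios of 1.51 and 1.43 and of 1.41 and 1.82. None of 22 oxidative phosphorylation genes was called, with a median log2 ratio of -0.01. None of 18 nucleolar genes was called either, with a median of 0.24, and Ncl, nucleolin, stood at 1606 and 1734 CPM, against 1224 and 1389.7. Of 18 heat shock chaperones the 1 called was Hspa1a, lower at 1.08 and 1.70 CPM, against 1.77 and 2.79, and uncertain, since its reads can be shared with its near-identical copy Hspa1b.

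Since the threshold cuts a continuous share, list levels were also read over 5 ranges of it: 0, above 0 and under 0.05%, 0.05% to under 0.1%, 0.1% to under 0.2%, and at least 0.2%. In library 1 these held 242, 785, 265, 217 and 296 barcodes, with median depths of 14232, 17450, 18644, 22643 and 25744 UMIs. In library 2 they held 707, 1867, 650, 567 and 537, with medians of 9976, 12127, 12440, 15037 and 15263. Depth thus climbed along the ranges in both libraries, and its part in the levels was not tested.

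The spindle list climbed through every range, at 1529.9, 2756, 4128, 4731 and 6194 CPM in library 1 and 1800.3, 2633, 3826, 4596 and 5745 CPM in library 2. The licensing list peaked at 0.1% to under 0.2%, at 284, 801, 1383, 1798 and 1314 CPM in library 1 and 367, 792, 1321, 1369 and 1143 CPM in library 2. The licensing sum was thus highest below the top of the 6-gene share, and the spindle sum at the top. The spindle sum holds abundant genes such as the tubulin Tubb5, and their part in its course was not tested. Histones had their main steps at the threshold and just past it, at 209.7, 226, 514, 947 and 970.04 CPM in library 1 and 252, 295, 655, 1148 and 1246 CPM in library 2. The hypoxia list was highest where the 6 genes were at 0, at 28992, 24035, 20293, 20884 and 21912 CPM in library 1 and 27674, 23454, 21270, 21596 and 21742 CPM in library 2. Its lowest level in both was at 0.05% to under 0.1%, and beyond that it stayed within a narrow band. In these list sums, melanoma barcodes with 0 UMIs of the 6 genes stood farther from the cycling ones than the rest of those under the threshold. The ranges are themselves cuts on cell cycle genes, and the range at 0 was the shallowest. What either contributes to this order was not tested.

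**Figure D3:**
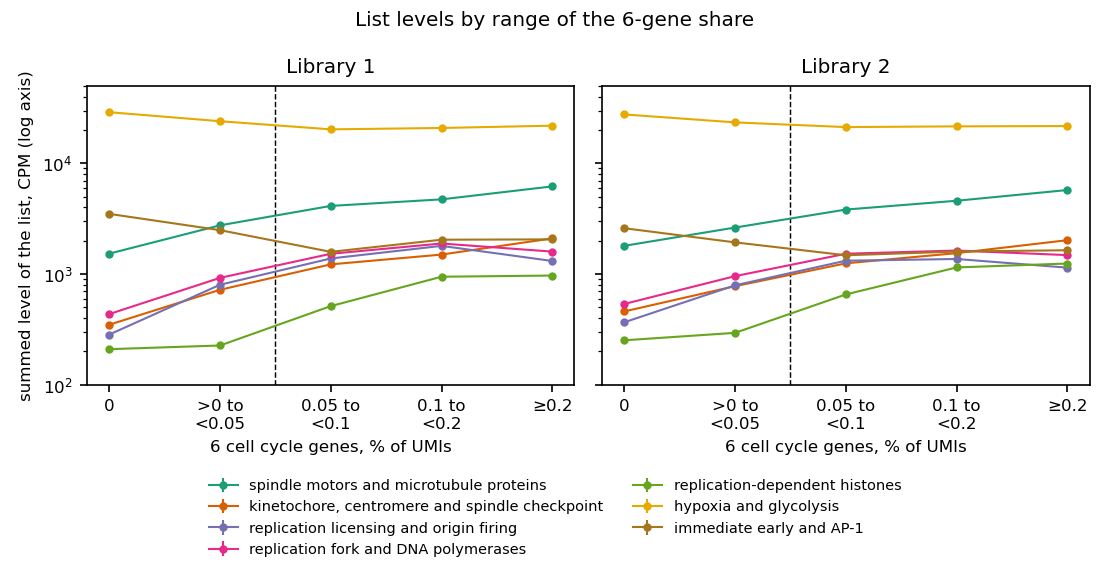
Summed CPM of 7 gene lists (y axis, log scale) over 5 ranges of the share of UMIs in the 6 cell cycle genes (x axis, percent), for each library, with 95% Poisson intervals that are mostly smaller than the points. The dashed line is the 0.05% threshold; the spindle line climbs through all ranges, the licensing line peaks at 0.1% to under 0.2%, and the hypoxia line is highest at 0.

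Single genes followed several courses over the same ranges. Ccnb1 climbed throughout, at 7.77, 63.2, 119.5, 148 and 282 CPM in library 1 and 26.6, 59.4, 122, 164 and 256 CPM in library 2. Ccnb2 was already high in the range below the threshold, at 25.6, 81.9, 106, 67.6 and 106 CPM in library 1 and 35.4, 70.96, 94.3, 80.6 and 112 CPM in library 2. Pttg1 was nearly flat, between 52.9 and 62.3 CPM in library 1 and between 57.6 and 64.7 CPM in library 2. Mxd4 declined over the first 3 ranges and little beyond, at 59.3, 35.7, 14.7, 13.4 and 12.2 CPM in library 1 and 54.6, 30.5, 11.4, 11.3 and 11.6 CPM in library 2. Kdm5b took a like course, at 166, 100.03, 43.3, 38.7 and 51.9 CPM in library 1 and 110.2, 69.9, 35.4, 33.4 and 34.99 CPM in library 2.

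Cycling barcodes varied in which step of division they showed. After thinning to 5000 UMIs, 76 genes of the S phase lists gave a median of 37 UMIs per cycling barcode in library 1, against 19 in other melanoma barcodes, and 36 in library 2, against 20. The mitosis lists were read without the genes of the rule and without Tuba1b, Tubb5, Stmn1 and Tubb4b, here and in the tertiles below. Their remaining 92 genes gave a median of 34 UMIs, against 12, and of 31, against 12. Of the other melanoma barcodes, 13.5% in library 1 and 14.6% in library 2 reached the cycling median for S phase genes, and 4.58% and 4.23% reached it for mitosis genes. What the choice of the 6 genes of the rule contributes to these shares was not tested.

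Across cycling barcodes, S phase and mitosis UMIs ran against each other, with a Pearson r of -0.30 over 778 barcodes of library 1 and of -0.26 over 1754 of library 2. Across other melanoma barcodes they ran together, with an r of 0.47 over 1027 and of 0.51 over 2574. These are descriptions across barcodes of 1 library at equal depth. The threshold that divides the classes is itself a cut on cell cycle genes, and its part in these values was not tested. In the plot of both counts, cycling barcodes of library 1 spread along an arm of S phase genes and an arm of mitosis genes.

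**Figure D4:**
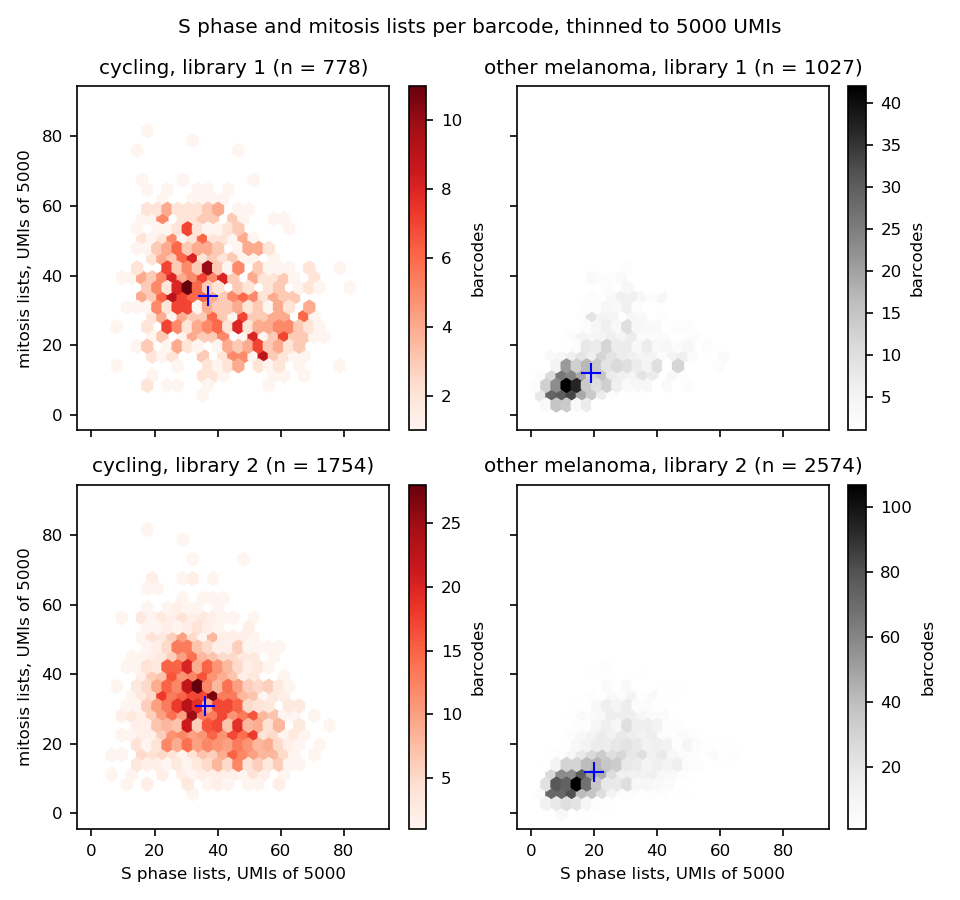
UMIs of the S phase lists (x axis) and of the mitosis lists (y axis) per barcode after thinning to 5000 UMIs, cycling barcodes on the left and other melanoma barcodes on the right, library 1 above library 2; shading gives barcodes per hexagon and the cross the medians. Cycling barcodes centre on 37 and 34 UMIs in library 1 and other barcodes on 19 and 12; 1 barcode above 90 UMIs of S phase genes is not drawn.

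To describe genes outside those lists along that spread, cycling barcodes of each library were put in 3 tertiles by the mitosis part of their S phase and mitosis UMIs. This order was chosen after the spread was seen. The tertiles held 260, 259 and 259 barcodes in library 1 and 585, 585 and 584 in library 2, with median depths of 22212, 22879 and 21792 UMIs and 13848, 14380 and 13808 UMIs, so depth differed little between them.

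Cyclins, which were not used for the order, took their places along it. Ccne1 and Ccne2, the E cyclins of entry into S phase, were highest in the lowest tertile. Ccne2 stood at 41.5, 7.72 and 2.32 CPM from the lowest to the highest tertile in library 1 and at 54.02, 10.3 and 4.79 CPM in library 2. Its levels in the middle and highest tertiles of library 1 rest on only 10 and 3 UMIs. Ccnb1 stood at 76.9, 189 and 300.4 CPM in library 1 and 83.1, 168 and 258 CPM in library 2, and Ccna2 at 76.9, 107 and 134 CPM and 65.98, 90.3 and 102 CPM, so both climbed. Ccnb2 climbed too, at 36.2, 116 and 162 CPM in library 1 and 53.3, 93.7 and 132 CPM in library 2. Ccnd1 declined, at 128, 96.5 and 77.99 CPM in library 1 and 156, 132 and 103 CPM in library 2.

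**Figure D5:**
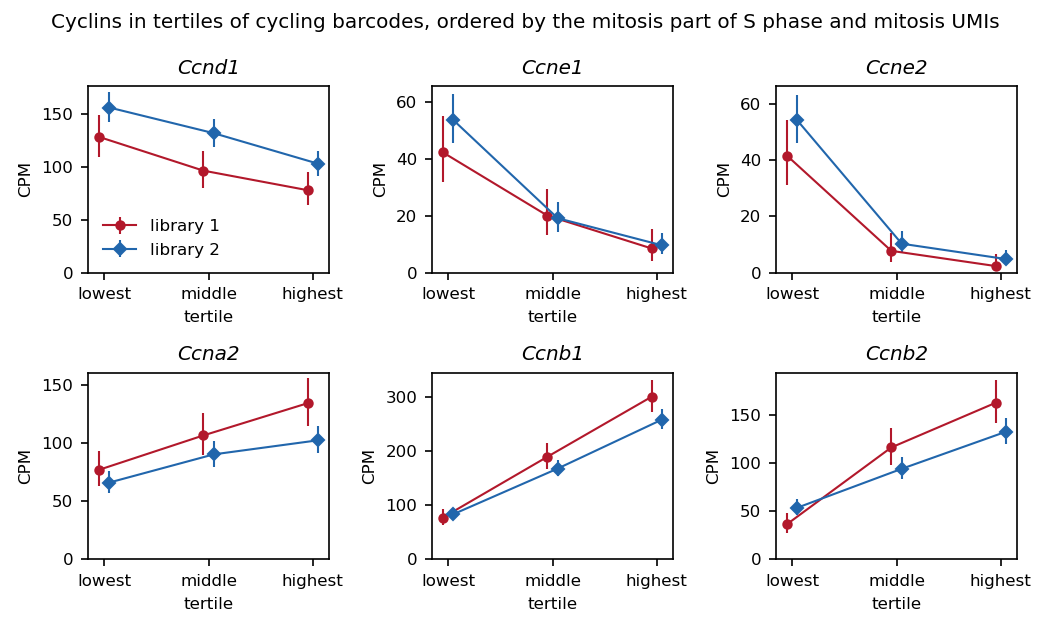
CPM (y axis) of 6 cyclin genes in tertiles of the cycling barcodes, ordered from the lowest to the highest mitosis part of S phase and mitosis UMIs (x axis), library 1 in red circles and library 2 in blue diamonds, with 95% Poisson intervals. Ccne1 and Ccne2 are highest in the lowest tertile and Ccnb1 and Ccnb2 in the highest, in both libraries.

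Histones, also outside the order, summed to 986, 826 and 525 CPM along the tertiles in library 1 and to 1208, 1010.3 and 786 CPM in library 2, and so were highest where S phase genes were. Repair genes did the same, at 761, 509 and 381 CPM in library 1 and 647, 463 and 425 CPM in library 2. Among the rule's own genes, Cenpf stood at 125, 314 and 505 CPM in library 1 and 126, 314 and 563 CPM in library 2, and Prc1 at 120, 239 and 349.8 CPM and 132, 254 and 369 CPM, both highest in the highest tertile. Top2a varied less, at 600, 664 and 635 CPM in library 1 and 511, 542 and 678 CPM in library 2. Kdm5b, lower in cycling barcodes as a whole, climbed within them, at 27.7, 49.4 and 74.1 CPM in library 1 and 21.9, 34.9 and 54.8 CPM in library 2. Nucleolar genes declined, at 6669, 6173 and 5102 CPM in library 1 and 6922, 6442 and 5608 CPM in library 2. The leukocyte markers summed to 143, 254 and 168 CPM in library 1 and 225, 251 and 179 CPM in library 2. They were highest in the middle tertile of both libraries, and the highest tertile was above the lowest in library 1 and below it in library 2. Stromal and red cell markers summed to 52.3, 161 and 33.98 CPM along the tertiles in library 1 and to 36.2, 30.8 and 41.8 CPM in library 2, with the peak in the middle tertile of library 1 and none such in library 2. The part of either marker list in the values along the tertiles was not tested.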

How the data were processed

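The members, gene lists and promoter motifs were chosen with earlier results of these data known. As deposited, the filtered matrix holds raw UMI counts of genes by barcodes. Per the file headers it came from software version 3.0.2, with Cell Ranger as the tool and mm10 as the build per the submitters' processing notes. Other steps are not given in the sources used here. The labels tie neither library number to a genotype.

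CPM is a gene's summed UMIs in a class of 1 library over all UMIs of that class, times 1000000. Intervals, at 95% and for counting error only, are exact: Poisson for levels, Clopper-Pearson for shares and conditional binomial for ratios. Log2 ratios used a pseudocount of 0.5. The 35 symbols given to more than 1 gene, and the genes of the rule, were left out of counts. No doublet caller was run; the highest 6% of UMIs were left out as an alternative. Thinning used random seed 1.

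Named genes are the 15 highest and 15 lowest ratios, the 4 highest and 2 lowest of each list, and 12 genes named whatever their value; Ccnb2, Pttg1, Ccnd2, Kdm5b, Mxd4 and Brca1, where the rule did not name them, the genes followed through ranges and tertiles, and Mcm3 for its promoter were chosen after their values were seen. 1 gene that the rule names is not reported here. On simulated class sums over 10727 genes, 100 of 100 genes changed 2 times and 48 of 50 changed 0.5 times were called, and 0 of 10527 unchanged ones. These sums varied by Poisson counting error only. They had no spread between barcodes and no choice of classes from the same counts, so they cannot tell how often real genes are called wrongly. Gene positions are from GENCODE on GRCm38, matched by gene ID. Python 3.11.15, numpy 2.4.6, scipy 1.17.1, pandas 2.3.3 and matplotlib 3.10.9 were used.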

Additional observations from a re-analysis of the deposited data

How the results depend on the processing

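Of 15 alternative settings, all but a ratio of at least 2 gave values for the 173 named genes. The 100 that were called kept their sign in all 1325 values, and none of those values reversed. Called genes were at least 1.5 times apart in both libraries, and most settings reread the same barcodes, so a kept sign says little. Minimums of 10 and 200 UMIs per gene, and leaving out barcodes copied from the other library, moved 0 values. Of all 2315 values of named genes under an alternative, 564 moved by more than counting error, most often at 0.1% (113), without shared barcode sequences (103) and at 0.03% (99). The share of cycling barcodes moved out of its counting interval in library 1 and library 2 with a threshold of 0.03% (54.0% and 52.0%) or 0.1% (28.4% and 25.5%), without shared barcode sequences (23.9% and 31.2%) and without the highest 6% of UMIs (40.2% and 38.4%). It also moved in library 1 with mitochondrial UMIs at most 5% (45.9%) and after thinning (40.7%), and in library 2 with at least 10000 UMIs (45.4%) and with pigment genes at least 1% (42.1%). The ratio of median UMIs was 1.43 and 1.30 at 0.1%, against 1.35 and 1.22 as reported. The 490 higher genes became 254 at a ratio of at least 2. The 214 lower genes became 86 without shared sequences (57 of them reported), 116 after thinning (76 of them reported), 454 with at least 10 UMIs, 112 with at least 200 UMIs and 28 at a ratio of at least 2.

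List medians were called moved outside the order-statistic 95% interval of the median over the list's genes, which 22 of 350 were. This interval was chosen after a narrower one, the median counting error of the genes, had marked 77. Medians moved at 0.1% for licensing (0.70), fork (0.70), kinases (1.78), kinetochore (1.14), nucleolus (0.13), immediate early (-0.39) and stromal markers (-0.85), and at 0.03% for licensing (1.14), chromatin assembly (1.20) and spindle (2.68). Without shared sequences they moved for licensing (1.40), fork (1.33), chromatin assembly (1.52), repair (1.81), immediate early (-0.36) and leukocyte markers (0.10). With pigment genes at least 1% they moved for immediate early (-0.72) and stromal markers (-1.11), with means over barcodes for leukocyte markers (-0.19), and without the highest 6% for stromal markers (-0.83). Leaving out barcodes above the median share of leukocyte markers, added after seeing the data, gave 0.12 for leukocyte and -1.14 for stromal markers. Medians changed sign for leukocyte markers, -0.32 as reported, in both settings given above, and near 0 for heat shock at 0.1% (-0.01, against 0.05) and oxidative phosphorylation at 0.03% (0.00, against -0.01). The stromal median, over 5 genes, was -0.04 at 0.03%, against -0.72 as reported, and the histone median was 1.76 with at least 10 UMIs per gene, against 2.47, both within wide intervals. The cause of these moves was not tested. The classes were compared within each library. No genotype was compared because no label ties a library to a genotype, and barcodes carry no replicate number. Values are given for each library by itself in place of leaving one out, and depth limits genes under 50 UMIs, which were not compared.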
